A study of Homo sapiens with 6 samples.

Results

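The genes described here encode the proteasome, and 49 genes were chosen as the protein-coding rows of the table whose symbol starts with PSM, a letter from A to G and a digit. They are 49 of 19799 protein-coding genes and of 58174 genes in all. The pattern takes in 48 genes of the proteasome and its own activators, inhibitor and assembly chaperones, and 1 gene of another kind, PSMC3IP, which encodes a protein of meiotic recombination and was described apart from the subunits.

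The study measured polyadenylated RNA in KNS42 cells, a line derived from a pediatric glioblastoma (GBM), an aggressive brain tumor. Cells were harvested 72 h after transfection with a pool of siRNAs against MSI1 (siMSI1, n = 3) or with a control siRNA (siC, n = 3). All 6 libraries come from the same unmodified line, and nothing in the labels says whether the replicates were separate cultures, so that p-values measure the spread between these libraries. The comparison asks which mRNAs change in abundance when MSI1, an RNA-binding protein of neural progenitor and glioma cells, is depleted.

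The proteasome degrades proteins that carry a ubiquitin chain. Its barrel, the 20S core, is built of outer rings of alpha subunits, which gate the entry, and inner rings of beta subunits, of which PSMB5, PSMB6 and PSMB7 carry the active sites. The 19S cap recognizes the ubiquitin chain, removes it and unfolds the substrate with a ring of ATPases, while dedicated chaperones assemble core and cap. Subunits are built into the particle in fixed proportion, and the mRNAs of many of them are known to be raised together by the transcription factor NFE2L1 when proteasome activity is short.

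Values are FPKM, the fragments of a gene per kilobase of its length and scaled to the fragments of the library. Levels compared between genes depend on the listed length, such as 1179 bases for PSMB3 and 6996 bases for PSMA4. Whether these lengths match the mRNAs expressed here was not tested. Each library held 13087025 to 18024080 reads on genes. Changes are log2 fold changes of siMSI1 over siC on log2(FPKM + 0.1) from limma, which was fitted on genes whose mean FPKM was 0.5 or more (15069 genes). A gene was called changed at a Benjamini-Hochberg adjusted p of at most 0.01 over all of these genes.

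The targeted gene itself was checked first. MSI1 was at 63.7, 61.9 and 66.9 FPKM in the siC libraries and at 12.1, 12.3 and 11.2 FPKM in the siMSI1 libraries. All 3 knockdown libraries thus lay far below the control libraries, at 18.5% of the siC mean (log2 fold change -2.43 ± 0.07 (SE), adjusted p = 8.71e-06 by limma with Benjamini-Hochberg adjustment). Markers of the glial lineage were present in all libraries, led by VIM, while RBFOX3, which marks mature neurons, was at 0 reads throughout. The summed level of the glial or progenitor markers GFAP, NES, SOX2, VIM and FABP7 was 1404 to 1466 FPKM in siC. It was 1164 to 1264 FPKM in siMSI1, and VIM alone averaged 1035 FPKM in siC. GFAP was called higher and FABP7 was called lower. NES, SOX2 and VIM were not called (log2 fold changes of -0.16, -0.23 and -0.26). GFAP was at 1.33, 1.57 and 1.99 FPKM in siC and 4.14, 4.65 and 5.04 FPKM in siMSI1 (log2 fold change 1.46), and FABP7 at 35.7, 38.4 and 34.3 and at 17.0, 17.8 and 15.1 FPKM (-1.12). The neuronal marker SYP was called lower, at 12.8, 12.3 and 13.6 FPKM in siC and 8.07, 9.54 and 9.20 FPKM in siMSI1 (-0.53), a call kept in 2 of the 6 fits that left out 1 library. The groups did not overlap in GFAP, FABP7 and SYP. In NES, SOX2 and VIM, too, all siMSI1 libraries were below all siC libraries, as in 21.5% of all tested genes. The sums of the leukocyte, endothelial and erythroid markers stayed below 0.5 FPKM in all libraries except siMSI1 replicate 3. Its erythroid sum was 1.28 FPKM. The endothelial sum was 0.134 to 0.262 FPKM in siC and 0.290 to 0.442 FPKM in siMSI1. The endothelial markers CDH5 and PECAM1, at 0 to 22 and 0 to 8 reads per library, were above siC in all 3 siMSI1 libraries. VWF overlapped between the groups. The part of these markers in the results was not tested. In such bulk libraries, fewer cells of a type and less RNA per cell cannot be told apart.

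After MSI1 depletion, PSMB2, a subunit of the beta ring without an active site, fell to 40.0% of its siC mean, while 8 other proteasome mRNAs rose by log2 fold changes of 0.34 to 0.62. Of the 49 members, 47 passed the filter on low values. The call was reached by 11 of them, of which 8 were higher in siMSI1 (PSMB5, PSMB7, PSMB1, PSMD13, PSMD11, PSMD1, PSMD7 and PSME4) and 3 were lower (PSMB2, PSMB6 and PSMC3IP). Over all tested genes, 11.0% were called, 5.15% as higher and 5.83% as lower. Among the 47 tested members, 34 had a log2 fold change above 0 and 13 below 0, with a median of 0.18, whereas 50.0% of all tested genes lay above 0. In 19 members, or 40.4%, all 3 siMSI1 libraries were above all 3 siC libraries, against 21.4% of all tested genes. In 3 members all siMSI1 libraries were below, against 21.5% of all tested genes, and in 25 members the groups overlapped.

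The count of calls leaned on single libraries. Without siC replicate 1, 2 members were called, none of them higher, and without siC replicate 2 or 3, the count was 4 (2 higher) or 3 (1 higher). Without siMSI1 replicate 1 or 2, it was 5 (3 higher) or 3 (1 higher), and without siMSI1 replicate 3 it was 10 (7 higher). The calls over all genes dropped with it, from 1655 to between 528 and 1603. With quantile normalization the calls among members split into 4 higher and 3 lower, while the calls over all genes went from 1655 to 1767. PSMB2 and PSMC3IP were called in each of the 6 fits that left out 1 library, and PSMB5 in 5 of them. PSMB7, PSMD11 and PSMD13 were called in 2 of these fits, PSMB1, PSMB6, PSMD1 and PSMD7 in 1, and PSME4 in none.

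**Figure D1:**
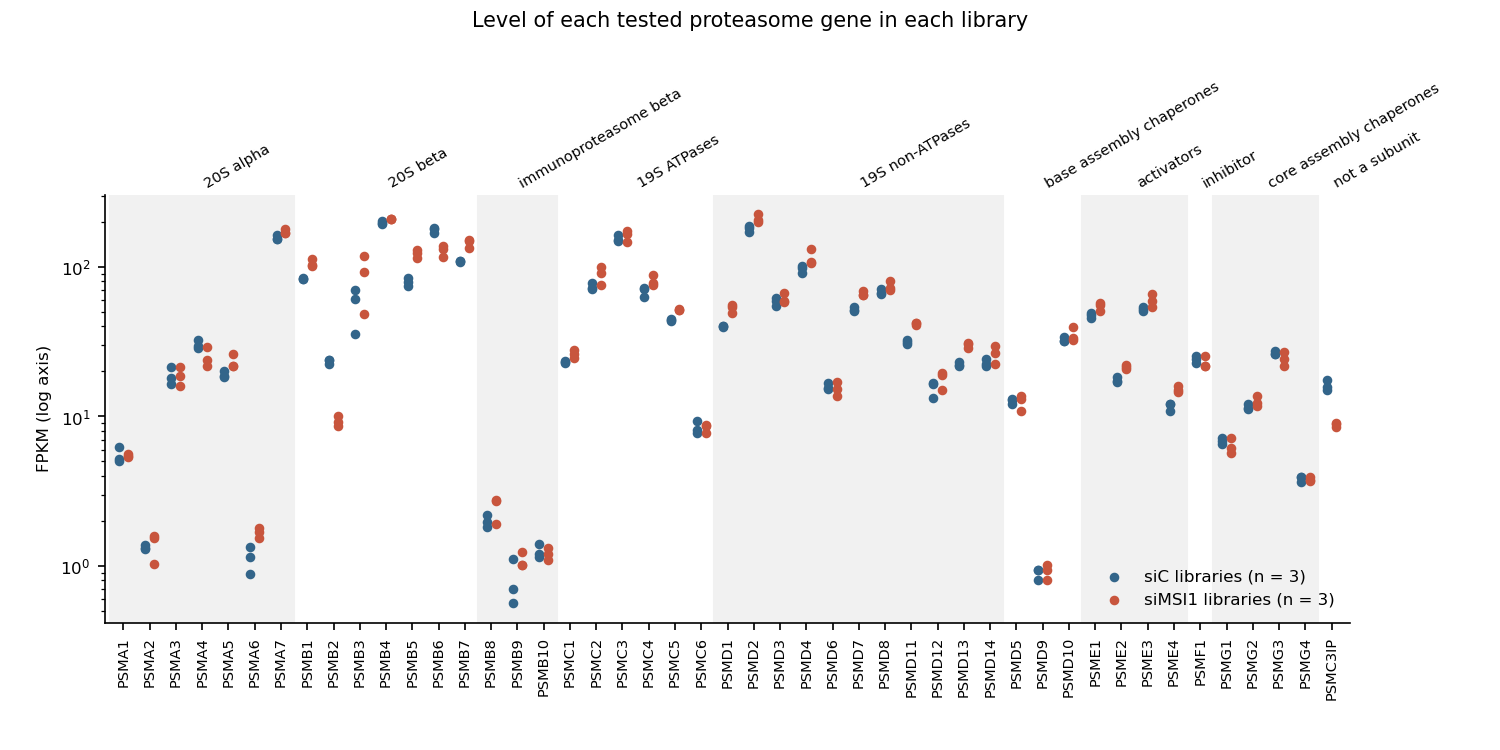
FPKM (log axis) of the 47 tested genes in each of the 6 libraries, ordered by part of the proteasome, with siC libraries in blue and siMSI1 libraries in red. Each point is 1 library. PSMB2 falls from between 22.3 and 23.9 FPKM to between 8.70 and 10.1 FPKM, and PSMB3 scatters within both groups.

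**Figure D2:**
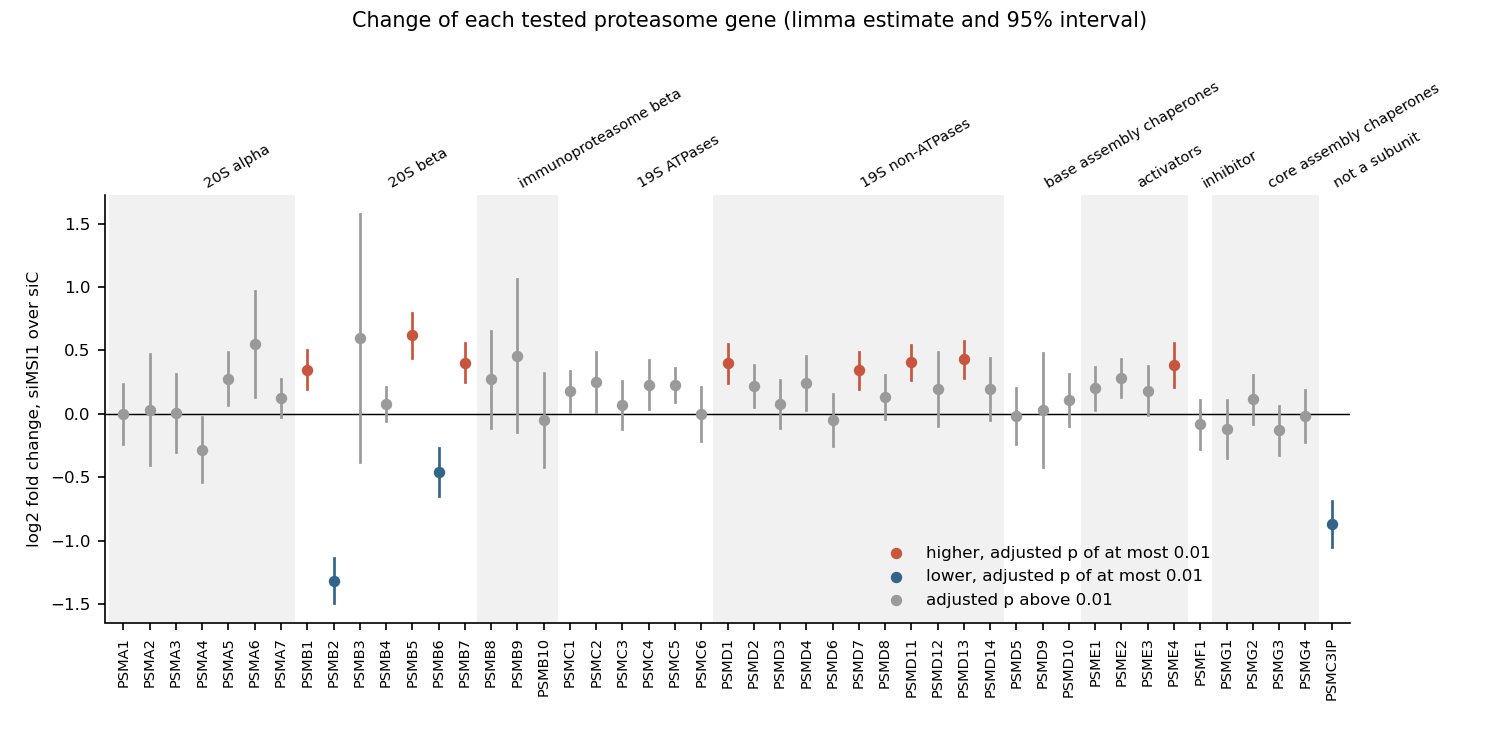
Log2 fold change of siMSI1 over siC (vertical axis) of the same 47 genes, as the limma estimate with its 95% interval. Called genes are red (8 higher) or blue (3 lower), the others grey. PSMB2 stands at -1.32 and PSMC3IP at -0.87.

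PSMB2 (ENSG00000126067, chr1:35599541-35641526, minus strand, GRCh38) is shown first, since it moved against most of the other subunits. The 300 bases around its RefSeq start (GRCh38.p14, chr1:35641477-35641776, minus strand, 250 before the start and 50 after it) are printed with those of PSMB5, the member with the largest called rise (chr14:23035171-23035470, minus strand). Capitals mark the letters CCAAT, the box bound by the factor NF-Y, whose first base is at position -2 from the start of PSMB2 and at -164 from that of PSMB5.
PSMB2: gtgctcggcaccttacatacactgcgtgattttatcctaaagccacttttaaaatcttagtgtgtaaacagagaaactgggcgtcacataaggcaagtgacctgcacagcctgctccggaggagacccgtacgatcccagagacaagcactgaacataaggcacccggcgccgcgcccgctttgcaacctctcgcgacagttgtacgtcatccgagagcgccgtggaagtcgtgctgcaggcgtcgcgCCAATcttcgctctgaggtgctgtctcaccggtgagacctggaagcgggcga
PSMB5: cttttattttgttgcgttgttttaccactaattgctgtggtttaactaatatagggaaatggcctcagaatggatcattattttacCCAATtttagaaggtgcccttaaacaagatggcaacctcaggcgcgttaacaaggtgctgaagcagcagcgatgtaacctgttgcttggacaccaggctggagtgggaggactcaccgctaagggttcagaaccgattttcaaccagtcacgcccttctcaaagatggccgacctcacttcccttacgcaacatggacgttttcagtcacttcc

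In the siC libraries PSMB2 was at 23.9, 22.3 and 23.7 FPKM, and in the siMSI1 libraries at 8.70, 9.17 and 10.1 FPKM. All siMSI1 libraries were far below all siC libraries, with 582 to 1954 reads behind each value. The mean fell from 23.3 ± 0.874 to 9.32 ± 0.702 FPKM (SD, n = 3 each). This is a log2 fold change of -1.32 ± 0.08 (SE; 95% interval -1.49 to -1.14; adjusted p = 0.000206 by limma with Benjamini-Hochberg adjustment). PSMB2 ranked at place 46 of 11365 tested protein-coding genes when these were ordered from the most negative change.

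PSMB2 was set against the other 13 constitutive subunits of the 20S core. It had been singled out with earlier results of these data known, so its p-values here are no independent support for its fall. PSMB2 reached 79.5%, 72.8% and 75.8% of the geometric mean FPKM of these subunits in siC. In siMSI1 it reached 25.0%, 26.0% and 29.8%, so that no library of one group came near the other. The mean of the others itself went from 30.1, 30.6 and 31.3 FPKM to 34.8, 35.3 and 33.9 FPKM. Relative to them, PSMB2 changed by -1.49 ± 0.09 (SE) on the log2 scale (95% interval -1.69 to -1.29; adjusted p = 7.22e-05 by limma with Benjamini-Hochberg adjustment over all genes). An exact two-sided permutation test of the 3 against 3 libraries gave p = 0.1, the smallest p this design allows. Among the 14 constitutive core mRNAs ordered from the highest FPKM, PSMB2 held place 9 in each siC library and place 11 in each siMSI1 library. Such places depend on the listed gene lengths. The 3 below it in siMSI1, PSMA1, PSMA2 and PSMA6, have uncertain levels, since another protein-coding gene overlaps each of them on the same strand. Without these 3, PSMB2 was place 9 of 11 in each siC library and the lowest of the 11 in each siMSI1 library. It then reached 34.8%, 33.8% and 33.5% of the geometric mean of the other 10 in siC and 11.3%, 11.8% and 13.1% in siMSI1, while its change relative to them was -1.49 ± 0.08 (SE, adjusted p = 6.62e-05 by limma).

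**Figure D3:**
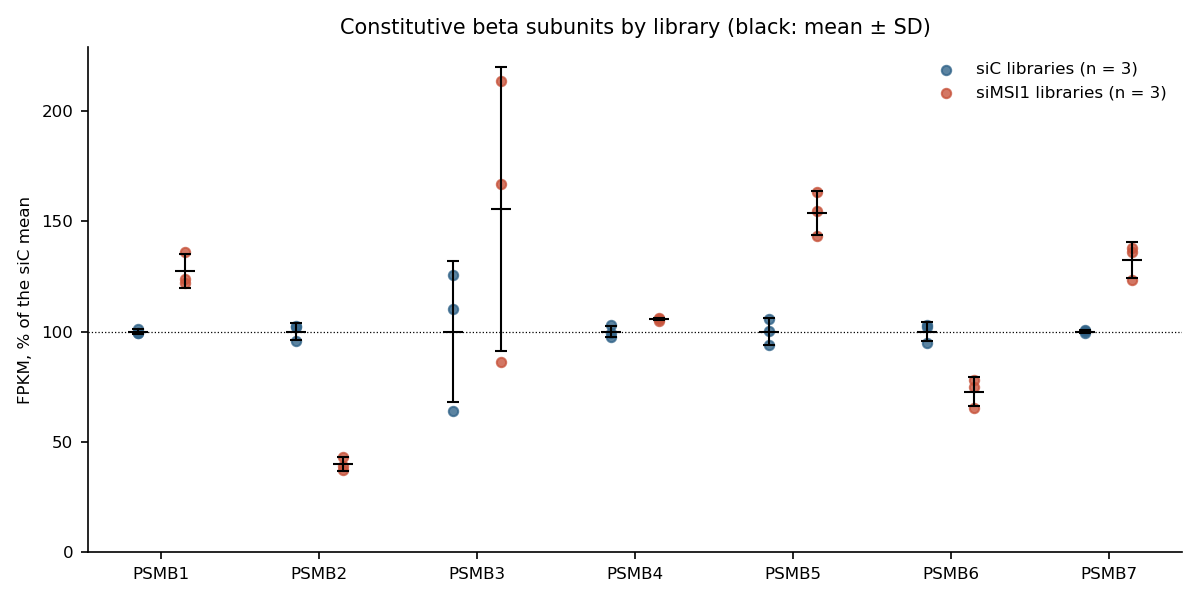
FPKM of the 7 constitutive beta subunits in each library, as a percentage of the gene's siC mean (vertical axis from 0), with siC in blue and siMSI1 in red (n = 3 each) and the mean ± SD in black. PSMB2 lies at 40.0% and PSMB6 at 72.8% of siC on average, while PSMB5 lies at 154%, PSMB7 at 132% and PSMB1 at 127%.

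The active-site subunits did not move together. PSMB5 (ENSG00000100804, chr14:23016543-23035230), which carries the chymotrypsin-like activity, was at 79.8, 74.7 and 84.3 FPKM in siC against 114, 123 and 129.8 FPKM in siMSI1. All siMSI1 libraries were above all siC libraries, with a log2 fold change of 0.62 ± 0.08 (SE; adjusted p = 0.0014 by limma with Benjamini-Hochberg adjustment). PSMB7 (ENSG00000136930, chr9:124353465-124415444), with the trypsin-like activity, went from 109, 108 and 109 FPKM to 134, 150.3 and 148 FPKM. Its groups did not overlap either (log2 fold change 0.40 ± 0.07, adjusted p = 0.00472 by limma). PSMB6 (ENSG00000142507, chr17:4796144-4798502), with the caspase-like activity, went the other way, from 181, 168 and 183 FPKM to 116, 133 and 138.5 FPKM. The log2 fold change was -0.46 ± 0.08 (SE; adjusted p = 0.00647 by limma), and the call was kept in 1 of the 6 fits that left out 1 library, although every siMSI1 library was below every siC library.

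Set side by side, PSMB6 had 2.17 to 2.26 times the FPKM of PSMB5 in the siC libraries and 1.02 to 1.08 times in the siMSI1 libraries. It took 48.0% to 48.9% of the summed FPKM of the 3 active-site subunits in siC and 31.9% to 33.3% in siMSI1. That sum was 369.7, 351 and 377 FPKM in siC and 364, 406 and 416 FPKM in siMSI1, so the groups overlapped in the total while they were apart in its composition.

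Of the other beta subunits, which have no active site, PSMB1 was called higher (82.7, 84.4 and 82.7 against 103, 113 and 101 FPKM; log2 fold change 0.35 ± 0.07, adjusted p = 0.00835 by limma). PSMB4, the core subunit with the highest FPKM, was at 193, 197 and 204 FPKM in siC against 208, 210.2 and 209.5 FPKM in siMSI1. Its groups were apart, but the change was small and not called (0.08, 95% interval -0.05 to 0.21). PSMB3 (ENSG00000277791) had the largest standard error of the tested members (0.40 on the log2 scale), at 61.4, 35.7 and 69.9 FPKM in siC against 119, 48.1 and 92.8 FPKM in siMSI1. Replicate 2 was the lowest library in both groups, the coefficient of variation was 32.0% in siC and 41.3% in siMSI1, and the log2 fold change of 0.60 had a 95% interval from -0.38 to 1.57. This interval is from the fit without a replicate block (adjusted p = 0.332 by limma). With a replicate block, the adjusted p was 0.0145 by limma and 0.0134 by voom, still above the threshold. Of the 7 beta subunits, 3 were thus called higher and 2 lower, against 5.15% and 5.83% of all tested genes.

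The alpha subunits gave no call with limma or with voom on the recovered reads, both without a replicate block, and at an unadjusted p below 0.05 limma had 2 higher and 1 lower. Of the 15069 tested genes, 2857 (19%) were higher and 2908 (19.3%) lower at this unadjusted p, and voom without a block called 8.39% higher and 9.46% lower. PSMA1 to PSMA7 had a median log2 fold change of 0.03, with 5 values above 0 and 2 below. Their summed FPKM was 227, 235 and 238 in siC and 242, 253 and 246 in siMSI1, with no overlap, and PSMA7 alone held the larger share with 157 FPKM in siC and 172 FPKM in siMSI1. At the upper end was PSMA6, at 0.882, 1.33 and 1.143 FPKM in siC against 1.53, 1.79 and 1.69 FPKM in siMSI1. These groups were apart, yet at 86 to 158 reads per library the adjusted p was 0.0586 by limma. At the lower end was PSMA4, at 28.5, 32.4 and 29.6 FPKM in siC against 23.8, 29.2 and 21.8 FPKM in siMSI1, with overlapping groups and a log2 fold change of -0.28 (95% interval -0.54 to -0.02, adjusted p = 0.105).

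The low levels of some subunits coincided with overlaps in the annotation. In GENCODE, 6 members overlap another protein-coding gene on the same strand, and 5 of these, PSMA1, PSMA2, PSMA6, PSMB10 and PSMD9, were listed at 0.898 to 5.50 FPKM on average in siC. The sixth, PSMC2, was at 74.0 FPKM. The 11 constitutive core subunits without such an overlap were at 18.6 to 198 FPKM. The part of the listed gene lengths in these levels was not tested. Whether reads shared between overlapping genes were dropped or split was not tested, so the levels of these 6 genes are uncertain, and none of them was called. PSMB2, PSMB6, PSMB7 and PSMB1 overlap no other annotated gene. The other 7 called members overlap an annotated gene. On the opposite strand, PSME4 overlaps ACYP2 (2.38 FPKM on average), PSMC3IP overlaps MLX (19.2 FPKM), PSMD7 overlaps the lncRNA AC009120.2 (5.06 FPKM) and PSMD11 overlaps the lncRNA AC005899.8 (1.99 FPKM, log2 fold change 0.71, adjusted p = 0.0146 by limma). PSMB5 overlaps AL132780.4 on the same strand (0.754 FPKM), and the genes overlapping PSMD1 and PSMD13 were below 0.1 FPKM. The sources used here do not say whether strand was used in counting.

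Interferon-induced beta subunits, which replace the active-site subunits in the immunoproteasome, were listed at low levels, that of PSMB10 being uncertain for its overlap. PSMB8, the counterpart of PSMB5, was at 1.83, 1.96 and 2.18 FPKM in siC against 2.71, 1.90 and 2.74 FPKM in siMSI1. PSMB9, the counterpart of PSMB6, was at 0.565, 0.702 and 1.11 FPKM in siC against 1.24, 1.02 and 1.02 FPKM in siMSI1. PSMB10, the counterpart of PSMB7, was at 1.15, 1.40 and 1.20 FPKM in siC against 1.10, 1.32 and 1.20 FPKM in siMSI1. The groups overlapped in all 3 genes and none was called by limma or by voom without a replicate block or had an unadjusted p below 0.05, with log2 fold changes of 0.27, 0.46 and -0.05 and with as few as 26 reads per library in PSMB9. For comparison, 10 of 13 listed interferon-induced genes were tested, of which 4 had a log2 fold change above 0, and at an unadjusted p below 0.05 there were 3 higher and 2 lower. Among all tested genes, 50.0% lay above 0, and 19% were higher and 19.3% lower at this unadjusted p. A single one of the 10 was called, near the 11.0% of all tested genes. By limma, OAS1 alone, an antiviral oligoadenylate synthetase, was called (0.823, 0.905 and 0.688 FPKM in siC, 1.43, 1.63 and 1.79 FPKM in siMSI1; log2 fold change 0.92, adjusted p = 0.00857), and the call was lost in each of the 6 fits that left out 1 library (adjusted p of 0.0177 to 0.031).

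Core subunits restricted to other tissues were not detected. PSMA8, the testis form of an alpha subunit, and PSMB11, the thymus form of a beta subunit, had 0 reads in all 6 libraries, where a floor of 3 reads is 0.0876 to 0.121 FPKM and 0.0786 to 0.108 FPKM, respectively. Such floors cover counting error only.

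In the 19S cap, 4 of 11 non-ATPase subunits were called higher and none lower, and 10 of the 11 had a log2 fold change above 0 (median 0.22). Of all tested genes, 5.15% were called higher and 5.83% lower, and 50.0% lay above 0. PSMD13, a subunit of the lid, changed most, from 22.2, 21.7 and 23.1 FPKM to 28.8, 30.4 and 31.1 FPKM (log2 fold change 0.43 ± 0.06, adjusted p = 0.00297 by limma). PSMD11, which stabilizes the lid on the core particle and limits assembly of the whole complex in some stem cells, went from 30.3, 32.7 and 31.3 FPKM to 41.9, 40.9 and 42.2 FPKM (0.40 ± 0.06, adjusted p = 0.00304). In both genes all siMSI1 libraries lay above all siC libraries with a gap wider than the range within either group. PSMD1, the scaffold of the base, was at 40.3, 40.5 and 39.5 FPKM in siC against 55.3, 54.2 and 49.0 FPKM in siMSI1 (0.40 ± 0.07, adjusted p = 0.00534). PSMD7, the partner of the deubiquitinase PSMD14, was at 50.5, 54.0 and 51.8 FPKM in siC against 64.9, 69.2 and 64.4 FPKM in siMSI1 (0.34 ± 0.06, adjusted p = 0.00724). The groups were apart in these 2 genes too. PSMD6 had the lowest change of the group, at 15.5, 16.8 and 15.3 FPKM in siC and 15.4, 16.9 and 13.8 FPKM in siMSI1, with overlapping groups (-0.05, 95% interval -0.26 to 0.16). PSMD14 itself had a log2 fold change of 0.19 and the ubiquitin receptor PSMD4 one of 0.24, neither of them called.

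None of the 6 ATPases PSMC1 to PSMC6 was called by limma or by voom without a replicate block, while 5 had a log2 fold change above 0 (median 0.20) and 4 of these an unadjusted p below 0.05 (19% of all tested genes were higher at that p). PSMC2 had the highest, at 72.7, 77.6 and 71.6 FPKM in siC against 91.0, 99.2 and 75.8 FPKM in siMSI1, where 1 siMSI1 library fell within the range of siC. PSMC6 had the lowest, at 7.73, 9.26 and 8.15 FPKM in siC against 8.61, 8.72 and 7.72 FPKM in siMSI1. PSMC5 came closest to the threshold (43.2, 44.3 and 45.0 against 51.3, 52.6 and 51.3 FPKM; log2 fold change 0.23, adjusted p = 0.0233 by limma), with no overlap of the groups. On the opposite strand PSMC5 overlaps FTSJ3 (28.2 FPKM on average, log2 fold change 0.48, adjusted p = 0.00235 by limma). Whether reads of FTSJ3 were counted for PSMC5 was not tested. The summed FPKM of the ATPases and non-ATPases was 971, 959 and 1002 in siC and 1090.0, 1159 and 1142 in siMSI1, so that all siMSI1 libraries were higher in the cap as a whole.

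The activators, which open the core in place of the 19S cap, all had a log2 fold change above 0 (median 0.24). Among all tested genes, 50.0% lay above 0 and 5.15% were called higher. Of the 4 activators, PSME4, the single chain PA200, was the one that passed the threshold, from 12.1, 12.0 and 10.9 FPKM to 16.0, 15.0 and 14.7 FPKM (0.38 ± 0.07, adjusted p = 0.00914 by limma). Its libraries did not overlap between the groups, but the call was lost in each of the 6 fits that left out 1 library. PSME1 and PSME2, which form an interferon-induced ring, had log2 fold changes of 0.20 and 0.28 (adjusted p = 0.0781 and 0.0163). PSME3, the nuclear form, had the smallest change, at 52.5, 51.0 and 53.9 FPKM in siC against 53.9, 59.3 and 65.9 FPKM in siMSI1, with 2 libraries almost level at the border (0.18, 95% interval -0.01 to 0.37).

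Of the assembly chaperones and the inhibitor, 8 genes in all, limma and voom without a replicate block called 0 and none had an unadjusted p below 0.05. For the chaperones of the core, PSMG1 to PSMG4, the median log2 fold change was -0.07, and the groups overlapped in all 4 genes. PSMG2 was highest (11.4, 12.2 and 11.2 against 12.3, 13.8 and 11.7 FPKM; log2 fold change 0.11) and PSMG3 lowest (27.4, 26.0 and 26.2 against 24.3, 21.9 and 26.8 FPKM; -0.13). For the chaperones of the base the median was 0.03, from PSMD10 (32.1, 33.8 and 31.9 against 32.4, 39.9 and 33.7 FPKM; 0.11) to PSMD5 (13.1, 12.9 and 12.2 against 13.1, 13.7 and 10.9 FPKM; -0.02), again with overlap in all 3 genes. PSMF1, the inhibitor PI31, was at 24.3, 22.9 and 25.5 FPKM in siC against 21.7, 21.6 and 25.4 FPKM in siMSI1 (-0.08, 95% interval -0.28 to 0.11). A missing call does not show that a gene was unchanged, since the standard errors of the 47 tested members ran from 0.06 to 0.40 on the log2 scale.

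PSMC3IP (ENSG00000131470, chr17:42572310-42577831, minus strand), the recombination factor caught by the name pattern, was at 15.8, 17.7 and 15.1 FPKM in siC against 9.04, 8.89 and 8.47 FPKM in siMSI1. The groups were far apart, with a log2 fold change of -0.87 ± 0.08 (SE; adjusted p = 0.000514 by limma with Benjamini-Hochberg adjustment). Without this gene, 10 members were called, 8 higher and 2 lower.

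Of the genes that work with the proteasome, a list of 16 partners was followed, all of which were tested, with 1 higher, 2 lower (5.15% and 5.83% of all tested genes) and a median log2 fold change of 0.02. POMP, which drives maturation of the new core and its beta subunits, was at 51.7, 54.1 and 51.2 FPKM in siC against 78.9, 82.9 and 78.5 FPKM in siMSI1. The groups were far apart (0.61 ± 0.06, adjusted p = 0.000603 by limma). UBE3C, a ubiquitin ligase bound to the proteasome, fell from 27.2, 26.6 and 25.1 FPKM to 17.4, 17.0 and 16.8 FPKM (-0.62, adjusted p = 0.00067). ADRM1, a ubiquitin receptor of the cap, and SEM1, a small subunit of the lid outside the PSM naming, had log2 fold changes of 0.42 (adjusted p = 0.0181) and 0.28 (adjusted p = 0.0754).

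Of the known regulators of proteasome genes, 11 were tested, of which limma called 0 higher and 2 lower, and 1 had a log2 fold change above 0. Among all tested genes, limma called 5.15% higher and 5.83% lower, and 50.0% lay above 0. At an unadjusted p below 0.05 there were 0 higher and 3 lower, and voom on the recovered reads without a block also called 0 higher and 2 lower. All tested genes stood at 19% higher and 19.3% lower for the former and at 8.39% and 9.46% for the latter. NFE2L1 was at 93.6, 88.6 and 96.0 FPKM in siC against 77.2, 83.2 and 83.2 FPKM in siMSI1, below siC in every library but not called (-0.19, adjusted p = 0.0681 by limma). DDI2, the protease that cleaves NFE2L1 into its active form, was at 2.096, 1.82 and 1.56 FPKM in siC against 0.822, 0.955 and 0.861 FPKM in siMSI1 (-0.97, adjusted p = 0.00566). Its level is uncertain, since RSC1A1 overlaps it on the same strand, and the call was lost in each of the 6 fits that left out 1 library (adjusted p of 0.0116 to 0.0334). MAFK, a partner with which NFE2L1 binds DNA, was at 8.38, 7.75 and 8.37 FPKM in siC against 5.52, 5.25 and 5.80 FPKM in siMSI1 (-0.56, adjusted p = 0.00248), a call kept in 2 of these fits. In both genes the groups were apart. mRNA levels do not show the cleavage or activity of these proteins.

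In the list of ubiquitin genes and of the unfoldase VCP with its cofactors, 9 of 10 had a log2 fold change above 0 (median 0.22). Among all tested genes, 50.0% lay above 0 and limma called 5.15% higher. By limma, UFD1, a cofactor of VCP, was the only call in this list (17.3, 18.0 and 17.5 against 21.2, 22.3 and 22.7 FPKM; 0.32, adjusted p = 0.00841), and it was lost in each of the 6 fits that left out 1 library (adjusted p of 0.0145 to 0.0499). The deubiquitinase USP5 (0.46, adjusted p = 0.0193), the ubiquitin gene UBB (0.39, adjusted p = 0.0185) and VCP (0.28, adjusted p = 0.0229) did not pass the threshold by limma, although the groups were apart in each. All siMSI1 libraries were above all siC libraries in 21.4% of all tested genes. By voom without a replicate block, 4 genes of this list were called higher, against 8.39% of all tested genes.

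**Figure D4:**
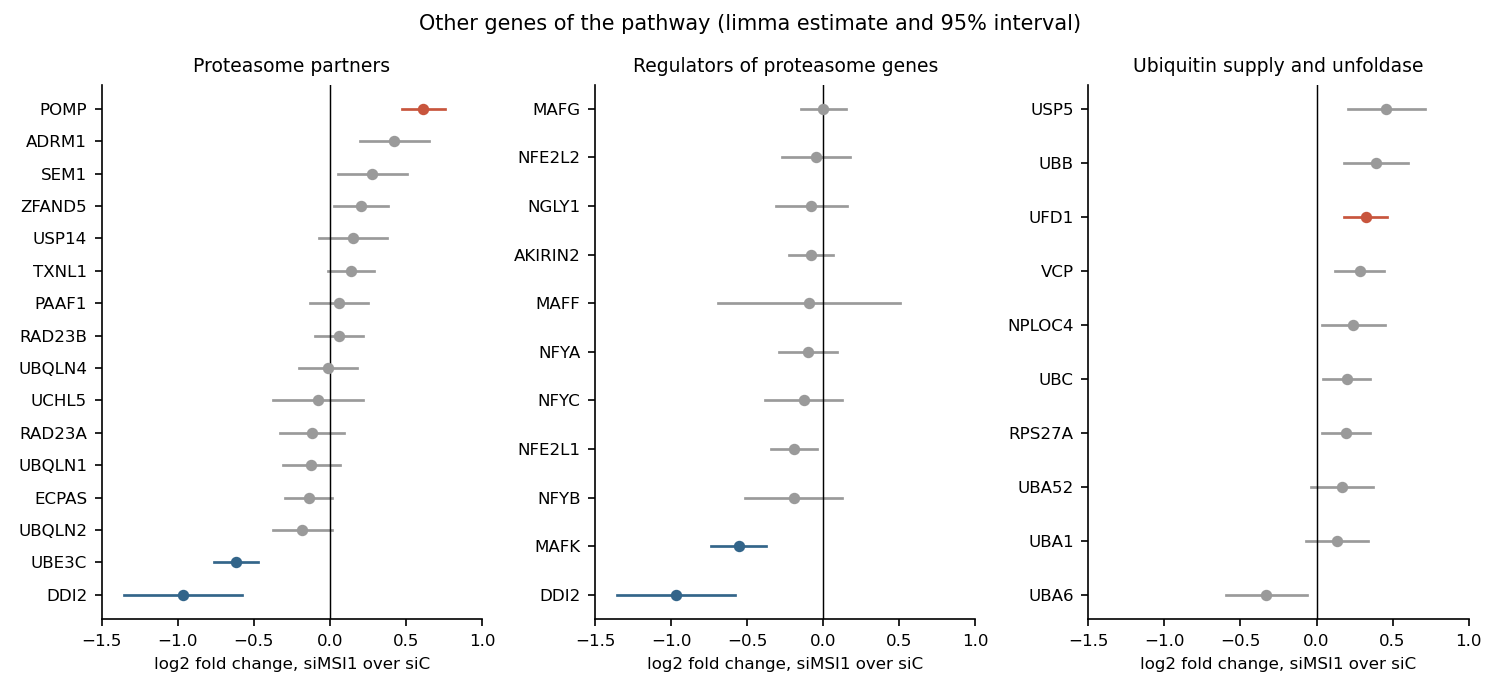
Log2 fold change of siMSI1 over siC (horizontal axis) with the 95% interval from limma for the tested partners (16), regulators (11) and ubiquitin genes (10), each panel ordered by value. Red points were called higher and blue points lower. POMP and UFD1 lie to the right of 0, UBE3C, DDI2 and MAFK to the left, and DDI2 stands in 2 panels.

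The promoters were also compared for the sequence that NFE2L1 binds, the core of the antioxidant response element, written TGACNNNGC and searched on both strands. It was found in 13 of the 43 members with a RefSeq promoter of 300 bases (30.2%), against 13.6% of all 27305 promoters of this length. CCAAT, searched in the same way and counted separately even where both overlapped, was found in 20 of the 43 (46.5%) against 35.7% of all. Of the 8 called members with a promoter in the table, PSMD1 and PSME4 held the first motif, and PSMB2, PSMB5, PSMD7 and PSMC3IP held the second. The promoters of PSMD1 (chr2:231056617-231056916, plus strand) and PSME4 (chr2:53970944-53971243, minus strand) are shown since they are the called members with the element, which is in capitals, at position 40 and in reverse orientation at position -34 from the start.
PSMD1: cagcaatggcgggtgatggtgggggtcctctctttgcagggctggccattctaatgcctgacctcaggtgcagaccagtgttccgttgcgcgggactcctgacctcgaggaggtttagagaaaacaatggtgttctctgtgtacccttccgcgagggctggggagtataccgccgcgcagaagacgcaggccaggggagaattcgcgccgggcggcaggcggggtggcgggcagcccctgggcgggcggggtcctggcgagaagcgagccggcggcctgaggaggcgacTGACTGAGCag
PSME4: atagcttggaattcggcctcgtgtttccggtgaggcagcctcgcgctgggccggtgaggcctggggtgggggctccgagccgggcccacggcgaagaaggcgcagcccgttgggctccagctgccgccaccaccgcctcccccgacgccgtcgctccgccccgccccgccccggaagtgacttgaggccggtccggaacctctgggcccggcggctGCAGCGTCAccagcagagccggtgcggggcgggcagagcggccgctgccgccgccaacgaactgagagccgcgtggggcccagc
A match of letters describes the window and is not a measured binding site.

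The nearest tested genes on either side of the 11 called members were read as a local comparison, 22 in all. Next to PSMB2, NCDN, a neuronal cytoplasmic protein, was called higher (log2 fold change 0.44, adjusted p = 0.00835 by limma), a call lost in each of the 6 fits that left out 1 library, and C1orf216 on the other side was not called (-0.03). Next to PSMC3IP, COASY, an enzyme of coenzyme A synthesis, was called lower (-0.64, adjusted p = 0.0024 by limma), a call kept in 2 of these fits. The other 20 neighbours were not called, among them SIRT3, which starts 35 bases from PSMD13 (-0.21, adjusted p = 0.137), and NEK6, 158 bases from PSMB7 (0.23, adjusted p = 0.0354). The share of neighbours called was thus near the 11.0% of all tested genes.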

How the data were processed

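RNA of the 6 KNS42 libraries was sequenced from a strand-specific polyA library. Per the submitters' processing notes, adapters were clipped with cutadapt 1.14, reads aligned to hg38 with HISAT2 2.1.0, handled with SAMtools 1.5 and summarized per gene with featureCounts 1.5.3. The authors deposited 1 table of FPKM per gene and library with gene lengths. Its columns of their own comparison (log2 fold change, p-value and FDR from edgeR 3.18.1) were not used.

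Reads per gene were recovered as FPKM times length over the value of 1 read, whole for 100.0% of values within 0.1 read. limma 3.58.1 (R 4.3.3; lmFit, eBayes with trend and robust, no block) was fitted on log2(FPKM + 0.1) of genes whose mean FPKM was 0.5 or more. voom on the recovered reads, without a block, called 2690 genes against 1655. For the relative change of PSMB2, each library was shifted by the mean log2 value of the other 13 core subunits. Groups came from the sample labels. Other added values, filters, scalings, moderation, thresholds, a replicate block and fits without 1 library were the alternatives, and 3 (without overlapping members, without overlapping core subunits for the relative change of PSMB2, without PSMC3IP) were chosen after seeing the data.

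Members, lists, markers and tests were chosen with earlier results of these data known. Values per library are given for called members, PSMB2, PSMB5 to PSMB10 and the extremes of each subcomplex, for called list genes, POMP and NFE2L1. Of the nearest tested neighbours of called members, log2 fold changes of the called and of some others are given. PSMB1, PSMB3, PSMB4, PSMC5, ADRM1, SEM1, USP5, UBB, VCP and others were named after their values were seen. Positions are from GENCODE v44 (57392 of 58174 IDs matched) and promoters from RefSeq. The model was tested on simulated data, whose noise and pass mark were changed after earlier versions recovered fewer changed genes than required, so this is no independent check of its power. Changes of the size seen in most members were often missed there.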

Additional observations from a re-analysis of the deposited data

How the results depend on the processing

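PSMB2 was called lower in all 17 alternative fits, with a log2 fold change of -1.37 to -1.24, and its change relative to the other core subunits stayed past the threshold in all 11 alternatives (-1.57 to -1.40). The count of called members (11, of which 8 higher) was 5 (3 higher) without a filter on low genes, 7 (4 higher) with quantile normalization and 3 (1 higher) with plain moderation. At an adjusted p of 0.05 it was 13 of 47 tested members (10 higher), against 3787 of 15069 tested genes, a similar share. Leaving out 1 library gave 2 to 10 members, 0 to 7 of them higher. The median log2 fold change of 0.18 was 0.13 with quantile normalization and 0.13 to 0.18 with a library left out. PSMB10, uncalled throughout, changed sign to 0.030 without siC replicate 2 and to 0.012 without siMSI1 replicate 1, within a range of -0.11 to 0.030 over the fits with a library left out, and the cause was not tested. Over all genes the 1655 calls became 792 without the filter, 1767 with quantile normalization and 847 with plain moderation. They became 2690 and 2854 with voom, 3787 at an adjusted p of 0.05 and 528 to 1603 with a library left out. Over all tested genes, libraries with the same number deviated little together (r of -0.07, 0.08 and 0.08). The labels do not say whether the numbers pair them, and the main fit used no block. An r over all genes cannot decide on pairing, since single genes such as PSMB3 did vary alike in both groups. A replicate block gave 12 members (9 higher) and 2250 genes, and voom with the replicate block 24 members (20 higher, alpha subunits and ATPases among them) and 4870 genes. Of 395 values for 22 named genes, 308 kept their side of the threshold, 86 lost the call and 1 gained it.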

Other observations

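Beside the protein-coding genes, the table lists 36 rows of other kinds with a name of the same pattern, 28 of them processed pseudogenes and 3 antisense genes. In 20 of the 36, no read was found in any library. Of the 5 that were tested, limma with Benjamini-Hochberg adjustment called 0, as did voom on the recovered reads without a block, and PSMA6P1, a processed pseudogene of PSMA6, had an unadjusted p below 0.05 (2.39 ± 0.381 FPKM in siC and 3.62 ± 0.991 FPKM in siMSI1, log2 fold change 0.56, adjusted p = 0.0754). The most abundant by siC level was PSMA3-AS1, the antisense gene of PSMA3, at 4.25 ± 0.633 FPKM in siC and 3.66 ± 0.610 FPKM in siMSI1 (SD, n = 3 each), with a log2 fold change of -0.22. PSMC1P1, a processed pseudogene of the ATPase PSMC1, was at 2.04 ± 0.454 and 2.64 ± 0.426 FPKM. Reads of PSMA6 and PSMC1 could lie on either copy, so the levels of both pairs are uncertain.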
